A study of Homo sapiens with 4 samples.

Results

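The members described here are the human miRNA names of the count table that begin with hsa-miR-, carry a number of 1200 or higher and end in neither -5p nor -3p. They comprised 146 of the 746 names. The miR-seq data came from U-251, an established human glioma cell line, in 4 libraries that formed a single group, labelled U251_DMSO, replicates 1 to 4. The labels give these cells the vehicle DMSO, whereas the paper speaks of basal conditions, and no irradiated, knocked-down or otherwise treated library was analysed here, so no comparison between conditions was possible. The deposited values are unnormalized counts per miRNA name, between 12363104 and 13214969 per library, and each was divided by the total of its library and multiplied by 1000000 (CPM). A cell of the table without a value was blank and no cell held 0. Blanks entered a mean as 0. Beside them a floor of 3 counts was set, about the 95% upper limit of the expected count where 0 is observed. This is 0.227 to 0.243 CPM by library, and it applies only if a blank stands for 0.

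A miRNA is cut from the hairpin of a longer transcript by Drosha and Dicer, and a strand of the resulting duplex is loaded into an Argonaute protein such as AGO2. The seed, the bases 2 to 8 counted from the 5′ end, pairs with target mRNAs, so names that share a seed are grouped as a family. Numbers are given roughly in the order in which miRNAs were registered, so high numbers mark hairpins that were mostly found by deep sequencing. The suffix -5p or -3p says from which arm of the hairpin a product comes, and a name usually lacks it where a single product of the hairpin is annotated. RefSeq gave a mature sequence for 129 of the 146 members, at 142 loci of GRCh38, and each of the 142 hairpins carried a single mature product. The late names with an arm numbered 237, the names below 1200 with an arm 319 and those below 1200 without an arm 44.

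The most abundant member, miR-1322, belongs to the 17 members for which RefSeq gave no sequence. The results on sequence, seed, locus, host gene, hairpin side and matches elsewhere therefore leave it out. The mature sequences of 6 other abundant members are shown first, and then those of 4 members with large counts beside blank cells. They are RNA letters from RefSeq (GRCh38.p14), written 5′ to 3′ with the seed in capitals.
miR-1262: aUGGGUGAauuuguagaaggau
miR-1299: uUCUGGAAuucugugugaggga
miR-1260b: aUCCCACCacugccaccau
miR-2278: gAGAGCAGuguguguugccugg
miR-7976: uGCCCUGAgacuuuugcuc
miR-1270: cUGGAGAUauggaagagcugugu
miR-1273c: gGCGACAAaacgagacccuguc
miR-1293: uGGGUGGUcuggagauuugugc
miR-12135: uAAAGGUUuguuuguaaa
miR-4440: uGUCGUGGggcuugcuggcuug
Each of these 10 has a seed that no other name with a sequence in the table shares. Over the 129 members with a sequence, 18 shared their seed with another name of the table, the mature length ran from 17 to 25 bases and the GC content from 22.2% to 85.7%, with a median of 50.0%.

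The members together were a small part of the miRNA pool of these cells. Their combined level in replicates 1 to 4 was 519.9, 567.4, 630.5 and 471.2 CPM, a mean of 547.3 ± 67.99 CPM (SD, n = 4). The late names with an arm had 588.5 ± 116.5 CPM (SD, n = 4), which differed from the members by less than either SD. Within the members the counts were concentrated in few names. miR-1322 alone held 54.0% of the counts summed over the 4 libraries, the 5 most abundant held 78.6% and the 12 most abundant held 86.9%. By summed count, 4 members had 1000 or more, 20 had from 100 to below 1000, 48 had from 10 to below 100, 33 had fewer than 10 and 41 had none. Since RNA was measured in bulk, a low level in all cells and a higher level in few cells cannot be told apart.

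**Figure D1:**
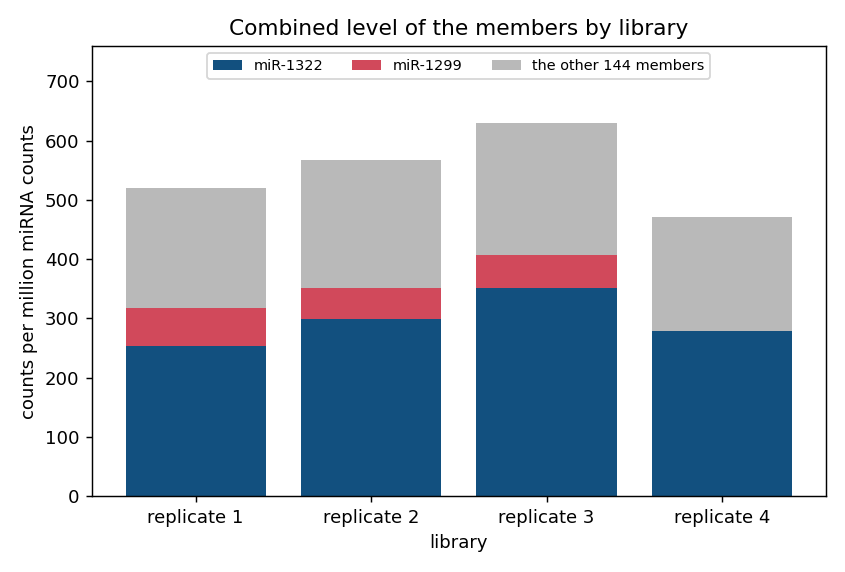
Combined level of the 146 members in each library, in CPM, split into miR-1322 (dark), miR-1299 (red) and all other members (grey). miR-1322 made up more than any other member in every library, and miR-1299 is missing from replicate 4, which had the lowest total, 471.2 CPM.

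miR-1322 was the most abundant member in every library. It had 3179, 3944, 4338 and 3567 counts in replicates 1 to 4, which is 295.6 ± 41.2 CPM (SD, n = 4), and it ranked 104th among all 746 names. Its coefficient of variation of 13.9% was 8.54 times that of counting error alone, the widest such ratio among the 20 members with at least 10 counts in every library. Counting error falls as counts rise, which raises this ratio for an abundant member. The 13.9% itself lay below the median of 24.5% of these 20 members. miR-1262, in an intron of WLS, which encodes a carrier for the secretion of Wnt proteins, was next. It lies at chr1:68183576-68183597 on the minus strand and had 495, 678, 598 and 538 counts, or 45.33 ± 5.45 CPM (SD, n = 4), which ranked it 159th. The distance between these names was much larger than the spread: miR-1322 was higher in 4 of 4 libraries by 2.70 ± 0.131 on the log2 scale (SD, n = 4). In a two-sided exact sign-flip test this gave p = 0.125, which no 4 libraries can go below, and 0.281 when adjusted by Benjamini-Hochberg over 9 neighbouring pairs. The pairs were ordered by mean CPM in these same libraries. This test and those of the other pairs below are therefore no independent support for the order.

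The place of miR-1299 near the top depended on a single library. It had 815, 693 and 687 counts in replicates 1 to 3 and a blank in replicate 4. The 3 listed values gave 57.7 CPM, above miR-1262, while the mean with the blank as 0 was 43.25 ± 29.3 CPM (SD, n = 4), below it. miR-1262 was higher in replicate 4 alone, and the log2 ratio between them, on counts plus 1, was 2.03 ± 4.70 (SD, n = 4). RefSeq places miR-1299 at chr9:40929010-40929031 on the minus strand, outside any protein-coding or long non-coding RNA gene of the same strand in GENCODE release 44. The same bases occurred at 10 other places on 3 chromosomes, 6 of them on chromosome 9, so the source of these reads is not settled by the sequence.

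The next members had a value in every library. miR-1260b had 420, 457, 259 and 277 counts, 27.69 ± 7.35 CPM (SD, n = 4), with replicates 1 and 2 above replicates 3 and 4. It is the single name in the table from a list of 16 late names without an arm. All of these but miR-1231 are listed as sharing sequence with other RNA classes, tRNA in the case of miR-1260b. Forms of the listed names with an arm were not looked up. None of the 129 members with a sequence had an exact match in the 5686 short RNA transcripts searched, nor in the mitochondrial genome. Nuclear tRNA was not among the kinds of transcript searched, so this search cannot decide on the tRNA overlap of miR-1260b. Its locus, chr11:96341447-96341465 on the plus strand, lies antisense to MAML2, a coactivator of Notch signalling, and the sequence occurred once more in the genome. miR-2278, in an intron of the aminopeptidase gene AOPEP at chr9:94809977-94809998 on the plus strand, had 185, 243, 252 and 240 counts, or 18.09 ± 2.38 CPM (SD, n = 4). Replicate 1 was its lowest, and its highest level of 20.4 CPM lay just below the lowest of miR-1260b, 20.9 CPM. miR-1260b was higher within each of the 4 libraries, by 0.58 ± 0.547 on the log2 scale (SD, n = 4, exact two-sided sign-flip p = 0.125, adjusted 0.281).

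Of the 12 most abundant members, those from the sixth place on had at most 170 counts in a library. miR-7976, in an intron of TPRA1 at chr3:127587158-127587176 on the minus strand, had 148, 151, 145 and 125 counts and 11.19 ± 0.938 CPM (SD, n = 4), and its coefficient of variation of 8.38% equalled the 8.38% that counting alone gives. miR-1270, in an intron of a long non-coding RNA gene at chr19:20399320-20399342 on the minus strand, had 79, 108, 107 and 72 counts and 7.19 ± 1.45 CPM (SD, n = 4). Both steps, miR-2278 above miR-7976 and miR-7976 above miR-1270, were found in 4 of 4 libraries, by 0.68 and 0.65 on the log2 scale on average (exact two-sided sign-flip p = 0.125 each, adjusted 0.281).

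Below miR-1270 the order was not the same from library to library. miR-3661, at chr5:134225777-134225798 on the plus strand, lies antisense to PPP2CA, which encodes a catalytic subunit of protein phosphatase 2A. It had 48 counts in replicate 1 and 90, 92 and 96 counts elsewhere, so that replicate 1 was low. miR-3176, in an intron of the calpain gene CAPN15 at chr16:543336-543354 on the plus strand, had 88, 73, 64 and 50 counts. miR-1294, in an intron of the glycosyltransferase gene GALNT10 at chr5:154347153-154347174 on the plus strand, had 45, 64, 64 and 86. miR-4450, in an intron of the actin regulator SHROOM3 at chr4:76573572-76573593 on the plus strand, had 53, 54, 60 and 68. The levels of these 4 members, 6.40 ± 1.75, 5.41 ± 1.27, 5.09 ± 1.30 and 4.62 ± 0.578 CPM (SD, n = 4), thus overlapped in range. Of the 9 neighbouring pairs among the 10 most abundant, 4 had the same order in all 4 libraries and 5 were mixed.

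**Figure D2:**
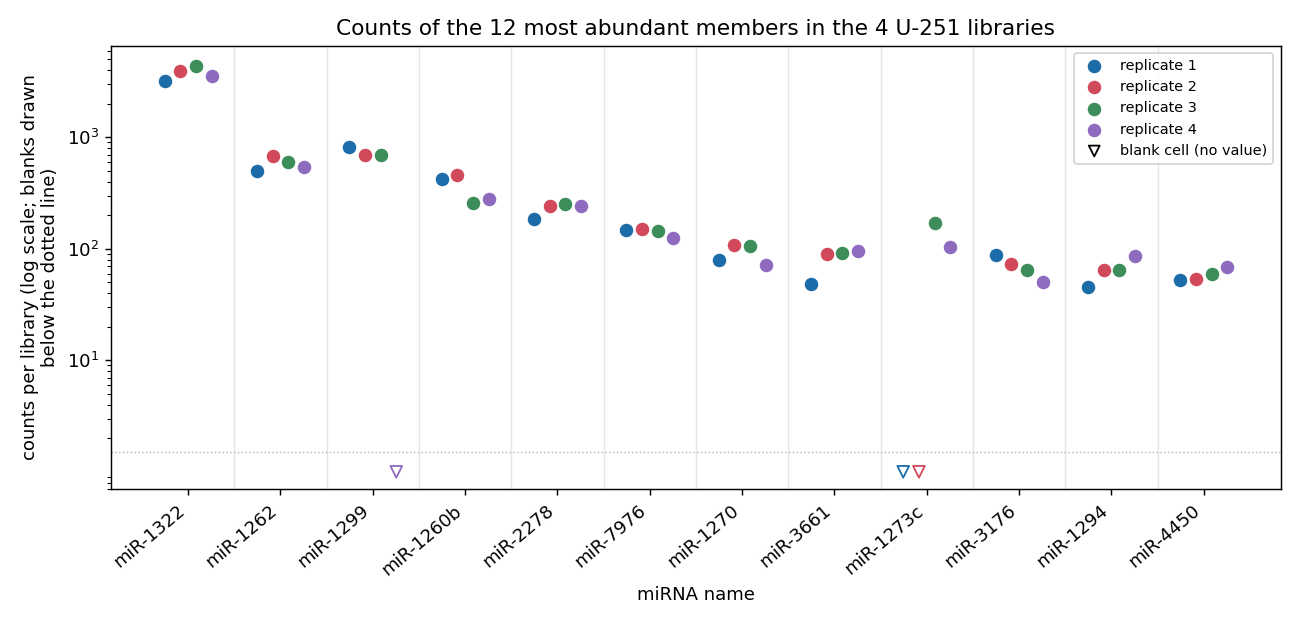
Counts (log scale) of the 12 most abundant members in replicates 1 to 4, ordered by mean CPM with blanks as 0, with open triangles below the dotted line for blank cells. miR-1322 lies above all others at 3179 to 4338 counts, and the blanks of miR-1299 in replicate 4 and of miR-1273c in replicates 1 and 2 stand beside counts of over 100 in the other libraries.

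Most cells of the members were blank. Of 584 cells, 238 held a value (40.8%) and 346 did not. A value in all 4 libraries was found for 28 members (19.2%), in 3 libraries for 14, in 2 for 21 and in 1 for 42, while 41 (28.1%) were blank throughout. Of all other names, 64.0% of cells held a value and 46.8% of names had one in every library. The listed values of the members were low, with a median of 16.5 counts against 205.0 for the other names, and 2 of them were below 3 counts.

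By library, the members had 67, 61, 63 and 47 values in replicates 1 to 4, so that replicate 4 had the fewest. The share of members with a value was lower than that of all other names in 4 of 4 libraries, with differences of -18.9, -24.1, -21.2 and -28.8 percentage points, or -23.2 ± 4.26 (SD, n = 4, exact two-sided sign-flip p = 0.125, adjusted 0.188 over 3 comparisons). Against the early names without an arm it was also lower in 4 of 4 libraries, with a difference of -18.9 ± 2.86 percentage points (SD, n = 4, exact two-sided sign-flip p = 0.125, adjusted 0.188). Against the late names with an arm the difference was -4.61 ± 4.52 percentage points (SD, n = 4), lower in 3 of 4 libraries and higher in replicate 1 (exact two-sided sign-flip p = 0.25, adjusted 0.25), which was about as large as the spread between libraries. The names of a class are not replicates, and these tests compare libraries.

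**Figure D3:**
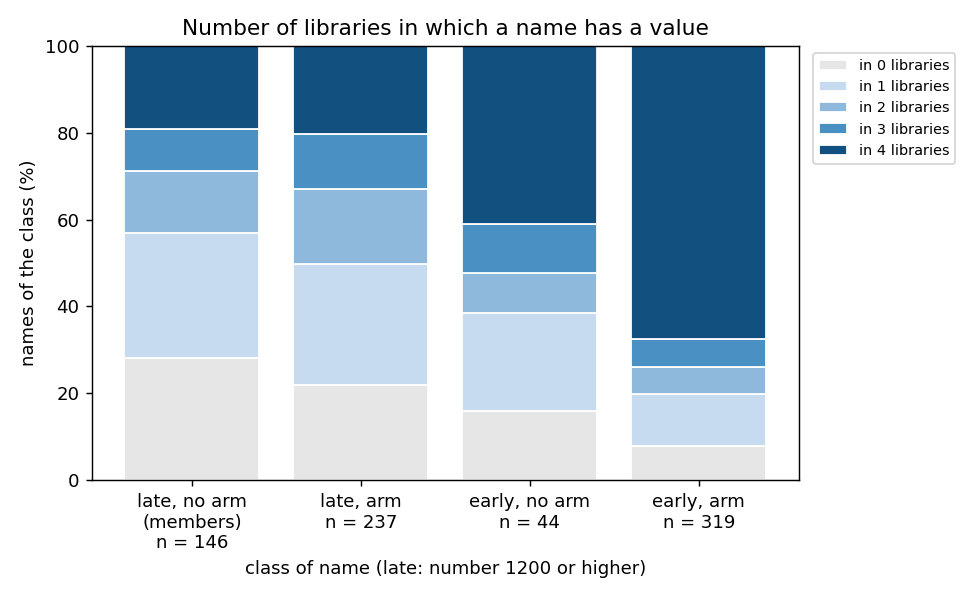
Percentage of names with a value in 0, 1, 2, 3 or 4 libraries for the 146 members, the 237 late names with an arm, the 44 early names without an arm and the 319 early names with an arm. The share in all 4 libraries was 19.2% for the members and 20.3% for the late names with an arm, against 40.9% and 67.4% for the early names.

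Among the members the listed share is given by the number in the name. The 28 members numbered from 1200 to below 2000 had 51.8% of their cells listed, 10 of them in every library, and together 446.0 ± 66.9 CPM (SD, n = 4). The 50 numbered in the 3000s had 40.5% of cells listed and 39.1 ± 6.37 CPM, and the 41 in the 4000s had 33.5% and 20.1 ± 5.09 CPM (SD, n = 4). The 26 numbered 5000 or higher had 38.5% of cells listed and 24.4 ± 5.10 CPM (SD, n = 4), and the only member numbered in the 2000s was miR-2278. The order of the listed share therefore did not fall evenly with the number.

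**Figure D4:**
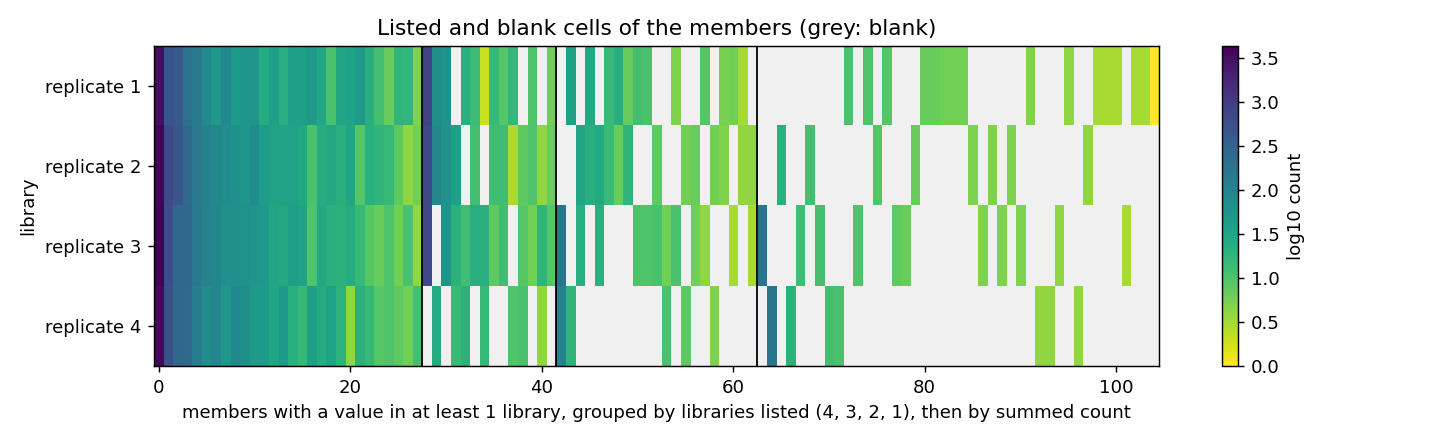
Listed and blank cells of the 105 members with a value in at least 1 library. Rows are libraries, columns are members grouped from left to right by the number of libraries with a value (28, 14, 21 and 42 members), colour is the log10 count and grey is a blank. The members listed in every library hold most of the high counts, with dark cells beside grey ones for a few members in the other groups.

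A blank often stood beside a count well above the lowest listed values. At least 10 counts in a library together with a blank in another were found for 38 members (26.0%), against 62 of the 237 late names with an arm (26.2%) and 157 of all 746 names (21.0%), so this was not particular to the members. Further, 6 of the 14 members listed in 3 libraries had at least 10 counts in all 3. The same held for 14 of 30 late names with an arm and for 31 of 56 of all other names, so this too was not particular to the members. Of the 66 members with at least 10 counts in some library, 18, 18, 15 and 24 were blank in replicates 1 to 4. miR-1299 was the largest such case: its lowest listed level, in replicate 2, was at least 223-fold higher than the floor of 3 counts in replicate 4. Over the 3 listed libraries the lowest count was 687, with an exact 95% Poisson interval of 637 to 740 that covers counting error only.

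For a pair of members the only value in the table was a high one. miR-1293, in an intron of LIMA1, which encodes an actin-binding protein, at chr12:50234182-50234203 on the minus strand, had 180 counts in replicate 3 and blanks in replicates 1, 2 and 4. miR-12135, in an intron of NEO1, which encodes a receptor of the netrin and repulsive guidance families, at chr15:73299962-73299979 on the plus strand, had 174 counts in replicate 4 and blanks in the others. The listed levels were at least 60.9-fold and 56.2-fold higher than the floor of the blank libraries. miR-12135 is the member with the lowest GC content, 22.2%, and had no exact match elsewhere in the genome but 29 sites with 1 mismatch, whereas miR-1293 had no match with up to 1 mismatch.

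Other members were split between libraries. miR-1273c, in an intron of TIAM2, which encodes an exchange factor for the GTPase Rac, had blanks in replicates 1 and 2 beside 170 and 104 counts in replicates 3 and 4, at least 34.1-fold above the floor. Its sequence at chr6:154853369-154853390 on the plus strand occurred at 2 other places exactly and at 106 with 1 mismatch. miR-3138, in an intron of WDR1, which encodes a factor of actin filament disassembly, at chr4:10078622-10078645 on the minus strand, had 70 and 92 counts, a blank and 25 counts. miR-4440, in an intron of the histone deacetylase gene HDAC4 at chr2:239068829-239068850 on the minus strand, had 58, 62 and 57.5 counts and a blank in replicate 4, and its sequence occurred at 3 more places of a single chromosome.

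miR-3146, in an intron of POLR1F, which encodes a subunit of RNA polymerase I, at chr7:19705366-19705387 on the minus strand, had a blank in replicate 1 and then 39, 20 and 15 counts, and miR-3149 had 36 counts, 2 blanks and 18 counts. The blanks thus fell in different libraries for different members, in replicate 4 for miR-1299 and miR-4440, in replicate 3 for miR-3138 and in replicate 1 for miR-3146. A value that is not a whole number occurred for 2 members, miR-4440 with 57.5 in replicate 3 and miR-5697, in an intron of NMNAT1, an enzyme of NAD synthesis, at chr1:9967390-9967411 on the plus strand, with 5.5 in replicate 1, 5 in replicate 2 and blanks in the others.

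**Figure D5:**
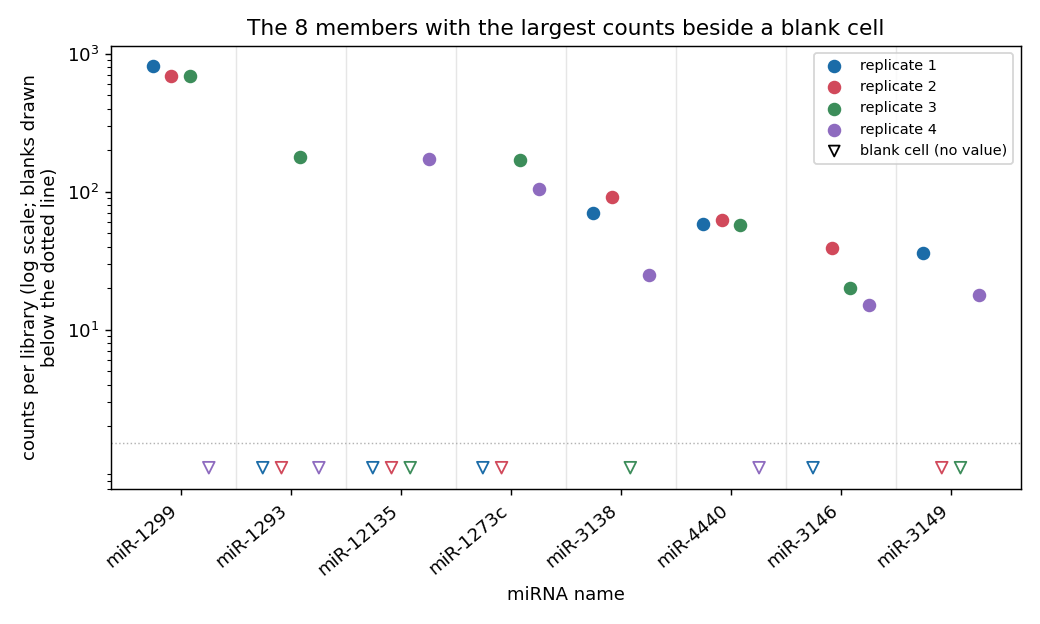
Counts (log scale) in replicates 1 to 4 of the 8 members with the largest counts beside a blank, with open triangles below the dotted line for blanks. miR-1293 and miR-12135 have a single filled point each, at 180 and 174 counts, and miR-1299 has 3 filled points between 687 and 815 beside its blank in replicate 4.

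The miR-3689 names, of which miR-3689e was chosen after its values were seen, show a blank beside a value for the same bases. They lie on the minus strand of chromosome 9, miR-3689f at chr9:134850783-134850804 and miR-3689e 169 bases away at chr9:134850614-134850635. The sequences are shown because miR-3689e and the names miR-3689a-5p and miR-3689b-5p, which carry an arm and are no members, are identical over all bases.
miR-3689e: uGUGAUAUcaugguuccuggga
miR-3689a-5p: uGUGAUAUcaugguuccuggga
miR-3689b-5p: uGUGAUAUcaugguuccuggga
miR-3689f: uGUGAUAUcgugcuuccuggga
Relative to miR-3689e, miR-3689f has the changes A10G and G13C, counted from 1 at the 5′ end, and all 4 share the seed. miR-3689e had a blank, 31 counts, 23 counts and a blank in replicates 1 to 4, and miR-3689a-5p had exactly the same values. miR-3689b-5p had 29 counts in replicate 1 and blanks in replicates 2 to 4. In replicate 1 the 3 identical sequences therefore had a value under 1 name and blanks under the other 2, in replicates 2 and 3 the reverse, and in replicate 4 all 3 were blank.

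miR-3689f had a value in every library, 39, 34, 32 and 32 counts, or 2.69 ± 0.278 CPM (SD, n = 4). Among the 20 members with at least 10 counts in every library, it was the only one in which a library stood apart by Dixon's ratio at its 95% critical value, replicate 1 being higher. With TMM, upper-quartile or DESeq2 scaling this call was lost, and miR-3164, chosen after its values were seen, was called instead. That is 1 of 20 (5.0%), against 31 of 280 names of the whole table (11.1%), so the members were not above the background. The coefficient of variation of these 20 members ran from 8.38% to 72.5% with a median of 24.5%, against a median of 20.1% over the 280 names. For 4 of the 20 it was at or below the level that counting alone gives and for 7 it was more than 2 times that level. The widest belonged to miR-3174, chosen after its values were seen, with 48, 11, 10 and 38 counts.

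The mature product of a member comes from either side of its hairpin. Of the 106 members with a hairpin sequence, 63 (59.4%) had it on the 5′ side and 43 (40.6%) on the 3′ side. The late names that carry an arm were -5p in 226 cases and -3p in 11, and the early ones -5p in 312 and -3p in 7. So few -3p names of any age were present that these numbers are no measure to set the members against. The RefSeq table as a whole placed 46.6% of its late names without an arm on the 3′ side. Members with the product on the 5′ side had 41.7% of their cells listed and 14 of 63 (22.2%) in every library, against 36.6% and 3 of 43 (6.98%) on the 3′ side. Of the abundant members, miR-1299 and miR-3176 are on the 3′ side, and miR-1262, miR-1260b, miR-2278, miR-7976, miR-1270, miR-1294 and miR-4450 on the 5′ side. These shares are a description, since names are not replicates.

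Most members lie inside other genes. Hosts were sought among protein-coding and long non-coding RNA genes on the same strand. Only the first listed locus of each name was counted. There, of the 129 with a locus, 77 lie in an intron and 18 in an exon of such a gene, and 34 have no such host. At that locus the host was protein-coding for 84 and a long non-coding RNA for 11. Among the 11 members with more than 1 locus, miR-3199, miR-4771 and miR-7973 are counted as without a host, though another locus of each lies in an intron of such a gene. No hairpin overlapped another annotated short RNA gene, of kinds that did not include nuclear tRNA. Within 10000 bases on the same strand, 122 had no other name of the table. The 7 that did include miR-1323 and miR-1283 in the large cluster of chromosome 19, where miR-1323, chosen after its values were seen, had 18, 8, 6 and 8 counts and its nearest neighbour in the table, miR-498-5p, a value in 1 library.

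A match elsewhere means any match outside the RefSeq mature loci of a name, on either strand. The mature sequence had no such exact match for 111 of the 129 members and at least 1 for 18. For miR-1258, miR-3155b and miR-3914 the only such match lay on the opposite strand of a hairpin gene of that name. Of cells, 38.7% were listed in the former and 45.8% in the latter. The most repeated sequences were those of miR-1972, with 458 other exact matches, and miR-1303, with 34, and both members were blank in all libraries. miR-1275, with 22, 35, 27 and 49 counts, matched at 5 other places, 4 of them on chromosome 21 within the MIR6724 genes, and miR-9901, with 39, 35, 38 and 21 counts, matched at 4 places on chromosome 21. The members miR-1972, miR-1303, miR-1275 and miR-9901 were chosen after their values were seen. The median GC content was 54.7% for the 38 members with a sequence that were blank throughout and lay between 46.6% and 50.0% for those in 1, 2, 3 or 4 libraries.

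The names that share a seed with a member had levels from none to well above it. miR-3132, miR-3139 and miR-3155b, chosen after their values were seen, had 0.162, 0.0809 and 0.202 CPM, while miR-197-5p, miR-708-5p and miR-484, which carry the same seeds, had 215.0, 123.0 and 48.7 CPM in that order. The mean of miR-484 holds a blank as 0, since it had a value in 3 libraries, whereas miR-197-5p and miR-708-5p had one in all 4. Of the abundant members, miR-3176 with 5.41 CPM shares its seed with miR-3922-3p, with 0.435 CPM, and miR-1294 with 5.09 CPM shares its seed with miR-9986, chosen after its values were seen, which had 3 counts in replicate 1 and blanks elsewhere. The seed of the Let-7 family, GAGGUAG, which is the family the study set out to measure, was the seed of none of the 129 members and of 9 names of the table. It occurred elsewhere in the sequence of 2 members, among 11 of 674 names (1.63%) that hold it anywhere. In miR-3138 it spans the bases 11 to 17, shown in capitals.
miR-3138: uguggacaguGAGGUAGagggagu
A match of these letters outside the seed position is a description of the sequence only.

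The identity of the cells was checked with miRNAs of a fixed list. miR-21-5p, miR-125b-5p and miR-9-5p, which are abundant in glia and glioma, had means of 30650, 38410 and 13900 CPM. Replicate 1 was the highest for miR-21-5p, with 55460 CPM against 20900 to 23980 in replicates 2 to 4. It was also the highest for miR-9-5p, with 20230 CPM against 10590 to 13260, while miR-125b-5p ran from 35780 to 43360 CPM. Of the miRNAs of other cells, miR-122-5p of liver had 20.5, miR-129-5p of neurons 10.1, miR-150-5p of white blood cells 1.55, miR-1-3p of muscle 0.434, miR-144-5p of erythroid cells 0.121 and miR-142-5p of white blood cells 0.0598 CPM, and miR-451a was blank in every library. The neuronal miR-124-3p of the same list was not analysed here, and of the names outside the members only 18 of 600 end in -3p, so the neuronal markers were read from miR-129-5p alone. The part of other cells in the members' values was not tested.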

How the data were processed

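RNA of non-irradiated U-251 cells was sequenced as miR-seq in 4 libraries. According to the paper's methods, a miRNA kit with single-end sequencing was used, and the authors used Trimmomatic for trimming, removed long reads, and used Bowtie (hg38) for mapping and miRDeep2 for counting. The labels instead describe polyadenylated RNA capture with random priming. Their processing notes also name bcl2fastq 2.20 and Picard. The authors deposited estimated counts without normalization, a few of which are not whole, and all columns of per-sample values matched a sample. How reads with several possible names were assigned, and why cells are blank, is not given in the sources used here.

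CPM, exact sign-flip tests and Dixon's ratios were computed in Python (version 3.11.15) with scipy 1.17.1, numpy 2.4.6 and pandas 2.3.3, and the steps were tested on simulated data. Scaling factors came from DESeq2 1.42.0 and edgeR 4.0.16 (R version 4.3.3), on rounded counts of names with at least 10 in every library. Genes were taken from GENCODE release 44 and mature sequences from RefSeq on GRCh38, the build of hg38, with coordinates counted from 1. GRCh38 was searched for each mature sequence on both strands. Precision follows the depth, and intervals and floors cover counting error only. Nothing says how separate the cultures were beyond their replicate numbers, so p-values measure the spread between these libraries.

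The members and lists were chosen with earlier results of these data known. Named members are the 12 with the highest mean CPM, up to 8 with at least 10 counts beside a blank, those with values that are not whole, those with a library standing apart and those known to share sequence with other RNA classes. Alternatives covered the scaling, the number limit, the count minimum, the denominator, repeated sequences and leaving out each replicate.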

Additional observations from a re-analysis of the deposited data

Results flagged for a closer look

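Dixon's ratio, the gap of the most distant library to its nearest neighbour over the whole range, was computed for the 20 named members and for 4 summary values, and exceeded its 95% critical value for 5 of the 24. Chance passes it in about 1 group of 20, but some of these members were named because a library stands apart or is blank, so the number passing is not a rate to set against chance. For miR-1293 and miR-12135 the ratio is 1.0, which follows from having a value in 1 library only, replicate 3 for the former and replicate 4 for the latter. For miR-4440 it was 0.986, with replicate 4 blank beside 57.5 to 62 counts. For miR-3689f it was 0.869, with replicate 1 at 39 counts above the 32 to 34 counts elsewhere, and with the libraries scaled by TMM, upper quartile or DESeq2 size factors this member no longer stood apart.

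The combined level of the members without miR-1322 stood apart in replicate 4, with a ratio of 0.851. It was 266.5, 268.9 and 279.7 CPM in replicates 1 to 3 and 191.5 in replicate 4. With miR-1299, which is blank there, also left out, the 4 values were 201.5, 216.5, 224.1 and 191.5 CPM, and no library stood apart.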

How the results depend on the processing

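The main count of 28 members listed in every library was 20 with at least 10 counts in each, became 105 for a value in at least 1 library and 17 with the number limit at 3000, and lay between 30 and 35 with each replicate left out. The mean combined level of 547.3 CPM was 468.1 over names with a value in every library, 83.6 for numbers of 3000 or higher, 459.0 without members whose sequence matches elsewhere, of which 309.3 CPM belongs to the 17 members that could not be searched, and, in a setting chosen after seeing the data, 251.6 without miR-1322. Leaving out each replicate gave 519.5 to 572.6, and the scalings, a limit at 1000, counting forms of 1 name once and leaving out miR-1299 moved it by less than the spread between libraries. The pairs with an even order, 4 of 9, were 3 to 7 with each replicate left out, and 7 without replicate 4, in which miR-1299 is blank. The number of members with a library standing apart was 0 of 5 with at least 100 counts in every library and 2 of 28 without a minimum. Under TMM, upper quartile and DESeq2 scaling it was again 1, but miR-3164, chosen after its values were seen, in place of miR-3689f. The listed share of members stayed below that of the other names, with a difference of -21.4 to -24.7 percentage points with each replicate left out and of -27.0 when at least 10 counts were required, a setting chosen after seeing the data. For the 20 named members, all 60 means under another scaling moved by less than the SD, which blanks widen. All 80 means with a replicate left out did so too. With 4 values a mean cannot move by as much as the SD when 1 is left out, so this is no measure of stability. By ratio, 6 members moved over 1.5 times with a replicate left out: miR-1293 from 3.64 to 0 CPM without replicate 3, miR-12135 from 3.41 to 0 without replicate 4, miR-1273c from 5.48 to 2.72 without replicate 3, miR-3149 from 1.07 to 0.471 and miR-5697 from 0.204 to 0.126 without replicate 1, and miR-3146 from 1.44 to 0.931 without replicate 2. Over listed libraries only, 2 of 9 moved by more. The cause was not tested. No paired analysis was possible because all 4 libraries belong to a single group. Depth limits members under 10 counts, for which a blank and a low count differ by few reads.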

Other observations

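Some further members, chosen after their values were seen, varied widely between libraries without a blank. miR-3662, in an intron of HBS1L at chr6:134979355-134979378 on the minus strand, had 34, 31, 24 and 4 counts, replicate 4 being the lowest. miR-3115, in an intron of the histone demethylase gene KDM1A at chr1:23044310-23044329 on the plus strand, had 46, 9, 16 and 20 counts, replicate 1 being the highest.

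Some members have another name of the table within 10000 bases on the same strand, whose level is given beside theirs. miR-3176 had 5.41 CPM and miR-5587-5p, 8020 bases away, 0.360 CPM. miR-4450 had 4.62 CPM and miR-548ah-5p, 1989 bases away, was blank in every library. miR-3179 had values in 3 libraries and miR-3180-5p in 1, and miR-1283, on chromosome 19, had a value in 1 library while miR-519c-5p, 2010 bases away, had one in all 4.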
